A study of Mus musculus with 4 samples.

Results

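The bone morphogenetic protein (BMP) pathway and its *Id* targets were followed in mouse embryonic stem cells (ESCs) through 10 genes of the 48526 gene rows in the count tables: *Bmp4*, *Bmpr1a*, *Smad1*, *Smad5*, *Smad9*, *Smad6*, *Id1*, *Id2*, *Id3* and *Id4*. The members were chosen by gene symbol, as the ligand, its receptor, the SMADs and the *Id* target genes, and all 10 were matched to a row. RNA was sequenced from 2 biological replicates of wild-type R1 ESCs (WT), an established mouse ESC line, and from 2 biological replicates of clone 2 of R1 ESCs in which *Zfp296* had been targeted with CRISPR (KO2). KO2 is a single clone, made with a guide against the first exon, so differences between clones and the effect of the targeted gene cannot be told apart. Both groups were grown on gelatine-coated plates, in serum with the cytokine LIF, the MEK inhibitor PD0325901 and the GSK3 inhibitor CHIR99021. No BMP ligand or BMP inhibitor is named as an addition to the medium.

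BMP ligands bind pairs of type I and type II receptor kinases, and the type I receptor phosphorylates SMAD1, SMAD5 and SMAD9, which enter the nucleus with SMAD4. There they bind GC-rich and CAGAC-type elements and activate targets, among them the *Id* genes and the inhibitory SMADs *Smad6* and *Smad7*, which feed back on the receptors. ID proteins are helix-loop-helix proteins without a DNA-binding region: they pair with E proteins and keep them from E-box DNA. In mouse ESCs, BMP signalling in serum is known for keeping *Id* genes on and holding back neural differentiation.

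The promoter windows of the *Id* genes are shown because these genes are known targets of the pathway. Bases farther from the start, where regulatory elements can also lie, were not examined. The RefSeq promoter table (GRCm38.p6) held 9 of the 10 members, in 11 windows, without *Id1*. The 250 bases before each start are given 5′ to 3′ on the gene's strand, and capitals mark 3 short motifs or their reverse complements. The GC-rich SMAD element is known in the form GGCGCC, which reads the same on both strands, and in the related form GGAGCC. The third motif, CAGAC, is the short element to which SMAD4 is known to bind.
Id2, chr12:25096093-25096342, minus strand: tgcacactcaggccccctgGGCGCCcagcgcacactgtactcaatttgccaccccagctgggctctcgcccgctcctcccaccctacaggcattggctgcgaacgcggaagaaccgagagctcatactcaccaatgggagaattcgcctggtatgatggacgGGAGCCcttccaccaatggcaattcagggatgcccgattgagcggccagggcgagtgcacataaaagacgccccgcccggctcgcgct
Id3, chr4:136143572-136143821, plus strand: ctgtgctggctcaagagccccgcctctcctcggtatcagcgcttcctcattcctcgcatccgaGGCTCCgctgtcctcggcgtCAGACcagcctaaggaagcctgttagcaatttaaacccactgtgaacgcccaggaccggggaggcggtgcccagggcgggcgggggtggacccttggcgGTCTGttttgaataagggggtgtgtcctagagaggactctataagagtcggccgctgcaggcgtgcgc
Id4, chr13:48260866-48261115, plus strand: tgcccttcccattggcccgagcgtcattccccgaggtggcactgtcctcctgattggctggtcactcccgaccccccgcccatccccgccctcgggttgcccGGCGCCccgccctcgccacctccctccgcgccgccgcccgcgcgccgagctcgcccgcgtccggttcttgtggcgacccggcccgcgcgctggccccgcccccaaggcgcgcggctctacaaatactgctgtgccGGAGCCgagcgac

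The window of *Id4* held 1 GGCGCC and 1 GGAGCC and no CAGAC, and that of *Id2* held the same. The window of *Id3* held no GGCGCC, 1 GGAGCC and 2 CAGAC. Of the 32851 promoter windows of this length in the table, 9.59% held GGCGCC, 26% held GGAGCC and 42.2% held CAGAC on either strand. The E-box letters CANNTG, found in 66.2% of all windows, occurred 1 time in the *Id2* window and not in those of *Id3* and *Id4*. The *Id4* window was also the most GC-rich of these, with 75.6% G or C and 35 CpG dinucleotides, against 62.8% and 18 CpG in both others and a median of 52.4% over all windows. Among the other members, GGCGCC was found in the windows of *Bmpr1a* and *Smad9* and in 1 of 3 windows of *Smad5*. GGAGCC occurred 2 times in the window of *Smad6* and 1 time each in those of *Bmp4* and *Smad9*. Another *Smad5* window held 1 GGAGCC and 1 CAGAC, and the *Smad1* window held none of these letters. These matches describe letters in the window and not bound sites.

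The WT samples held 2829914 and 4334499 counts assigned to genes and the KO2 samples 7470907 and 7437294, so that 3 counts correspond to 1.12 and 0.709 CPM in WT and to 0.38 and 0.401 CPM in KO2. CPM are counts scaled to a common library size, with library sizes adjusted by the TMM method of edgeR. The samples carried RNA of ESCs: all 9 ESC markers were tested, led by *Zfp42*, and their summed CPM was 6858.0 and 6726.5 in WT and 6973.2 and 6641.7 in KO2. Of these, *Sox2* alone was called, with 872.8 and 806.0 CPM in WT and 482.8 and 489.0 CPM in KO2. Fibroblast markers, led by *Pdgfrb*, summed to 3.35 to 13.2 CPM with *Dcn*, *Lum* and *Postn* at 0 in every sample, primitive endoderm markers, led by *Dab2*, to 3.07 to 10.4, trophoblast markers, led by *Eomes*, to 6.59 to 14.3 and mesoderm markers, led by *Kdr*, to 5.96 to 10.4 CPM. Neural markers summed to 97.6 and 86.7 CPM in WT and to 115.4 and 121.1 CPM in KO2, nearly all from *Nes*. Of these 5 lists, 1 fibroblast, 3 primitive endoderm, 2 trophoblast, 1 mesoderm and 1 neural gene had enough counts to be tested. None of these was called, and the other genes of these lists were not tested. *Zfp296* itself was read at 11.6 and 7.33 CPM in WT and at 52.8 and 37.7 CPM in KO2. It was called as higher (log2 fold change 2.31, edgeR's adjusted p = 4.55e-05). Counts over the whole gene do not show whether its reading frame is broken. The paper reports that its knockout clones were checked by sequencing and by mass spectrometry. For its ChIP-sequencing, it proposes that unequal depletion of ZFP296 may underlie variance between knockout lines. The Y-linked *Ddx3y* had 0 and 1 counts in the WT samples and 1979 and 2197 counts in KO2, so the groups also differ in RNA of this gene. Other Y-linked genes are not reported here. R1 is known as a male line, and why this RNA was nearly absent in the samples labelled WT was not tested. The part of this difference between the groups in the results below was not tested either.

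In KO2 compared to WT, *Id4* fell 3.95-fold while no other member passed the test. The *Id4* call was lost in 7 of 11 alternative fits, including each fit without 1 sample, with adjusted p values of up to 0.176 (edgeR). *Bmpr1a*, *Smad1* and *Smad5*, the receptor and the receptor-activated SMADs with most reads, had 95% intervals that held 0 and stayed within 2-fold. *Id1*, *Id2*, *Bmp4*, *Smad6* and *Smad9* were read at 0 to 25 counts per sample. Their intervals, and that of *Id3*, leave room for changes of more than 2-fold in at least 1 direction. Of the 10 members, 8 passed the filter on low counts, each with at least 1 sample of WT and 1 of KO2 at the filter's minimum level, and 1 of these 8 was called at an adjusted p under 0.05 (quasi-likelihood test of edgeR, Benjamini-Hochberg adjustment over the 12883 tested genes). Over all tested genes, 5.64% were called in either direction, 2.61% as higher and 3.04% as lower in KO2. The median log2 fold change of the 8 tested members was -0.0515, compared to 0.0125 over all tested genes. The groups did not overlap in CPM for 4 of the 8 tested members, against 48.8% of all tested genes, so the member share is near the background.

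**Figure D1:**
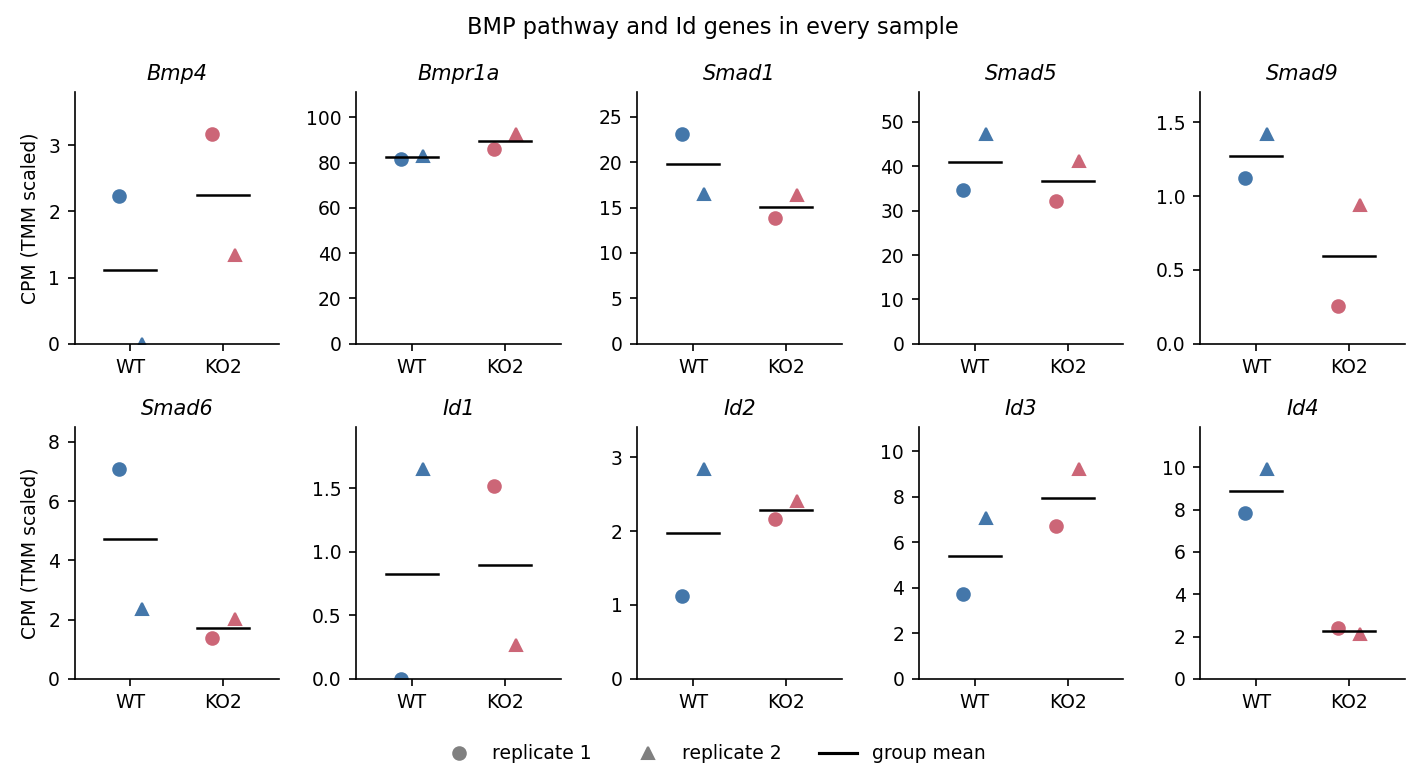
Level of each member in CPM (vertical axis, starting at 0, a scale of its own in each panel) in the 2 WT and the 2 KO2 samples, with points for samples and bars for group means. The 2 KO2 samples of *Id4* lie at 2.41 and 2.14 CPM, under the WT samples at 7.83 and 9.92 CPM, while the groups of *Id1*, *Id2*, *Id3*, *Bmp4* and *Smad5* overlap.

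Members can be compared with each other only per length, as RPKM over the union of annotated exons. *Bmpr1a* was the highest, at 12.9 to 14.6 RPKM over the 4 samples, apart from the next member, *Smad5*, at 4.32 to 6.37 RPKM. *Id3* (2.08 to 5.15 RPKM), *Id4* (1.29 to 5.98 RPKM) and *Smad1* (2.38 to 3.97 RPKM) followed, and neighbours in the order from *Smad5* to *Smad1* overlapped in range. *Id2* lay below *Smad1* without overlap, at 0.88 to 2.23 RPKM. *Smad6* (0.445 to 2.26 RPKM), *Bmp4* (0 to 1.43 RPKM), *Id1* (0 to 1.43 RPKM) and *Smad9* (0.0472 to 0.264 RPKM) were the lowest, each overlapping its neighbour. Within the *Id* family the order by group mean RPKM was *Id4* (5.35), *Id3* (3.02), *Id2* (1.56) and *Id1* (0.713) in WT, and *Id3* (4.45), *Id2* (1.8), *Id4* (1.37) and *Id1* (0.771) in KO2.

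**Figure D2:**
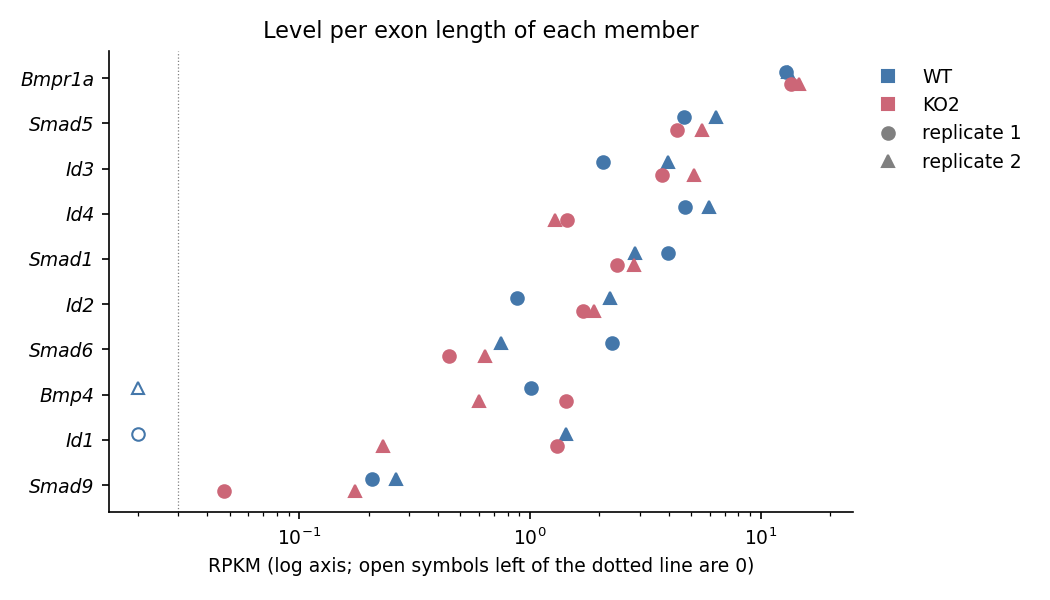
RPKM (log axis) of every member in each sample, ordered by the mean over the 4 samples, with colours for WT and KO2, circles for replicate 1, triangles for replicate 2 and open symbols for samples at 0. *Bmpr1a* stands alone at 12.9 to 14.6 RPKM, and *Smad9* reaches at most 0.264 RPKM.

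*Bmp4*, the ligand of the set, lies on the minus strand at chr14:47003195-47010344 (mm9, as all gene positions here). It had 6 and 0 counts in the WT samples (2.24 and 0 CPM) and 25 and 10 counts in the KO2 samples (3.17 and 1.34 CPM). The 0 in WT replicate 2 allows a level of up to 0.709 CPM, and the groups overlapped. The log2 fold change in KO2 was 1.35 ± 1.02 (SE), with a 95% interval from -0.79 to 3.50 and an adjusted p of 0.517 (edgeR). Its size depended on single samples, at 0.0218 without WT replicate 2 and 1.83 without KO2 replicate 2. Without WT replicate 1 the remaining WT sample is at 0, where the fitted value of 6.90 is set by the model's prior count and is not a measured fold (edgeR's adjusted p = 0.221). The opposite-strand gene *Gm15217* overlaps 89 exon bases of *Bmp4*, and how the counting treated strand is not given in the sources used here.

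*Bmpr1a* encodes the type I receptor BMPR1A (ALK3), on the minus strand at chr14:35223920-35316527. Its 219, 351, 678 and 693 counts corresponded to 81.6 and 82.9 CPM in WT and to 86.0 and 92.6 CPM in KO2. Both KO2 samples were above both WT samples by a small margin. The log2 fold change was 0.12 ± 0.14 (SE, edgeR's adjusted p = 0.714), and its 95% interval from -0.18 to 0.41 is the narrowest among the members. Of its 6351 exon bases, 290 overlap the opposite-strand gene *Gm17110*.

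Of the SMADs that BMP receptors phosphorylate, *Smad5* (chr13:56804371-56843738, plus strand) had 34.7 and 47.3 CPM in WT and 32.1 and 41.2 CPM in KO2. The 2 groups overlapped, and the log2 fold change of -0.18 ± 0.21 (SE, 95% interval -0.62 to 0.25) had an adjusted p of 0.697 (edgeR). *Smad1* (chr8:81862294-81923417, minus strand) had 23.1 and 16.5 CPM in WT and 13.8 and 16.4 CPM in KO2. Its higher KO2 sample lay just under its lower WT sample, and the log2 fold change was -0.36 ± 0.29 (SE, 95% interval -0.96 to 0.25, edgeR's adjusted p = 0.549), and it was -0.13 without WT replicate 1, -0.61 without WT replicate 2 and -0.22 without KO2 replicate 1. *Smad9* (chr3:54559504-54605179, plus strand), the third of these SMADs, had 3 and 6 counts in WT and 2 and 7 counts in KO2, or 1.12 and 1.42 CPM against 0.254 and 0.936 CPM. It did not pass the filter. In a fit without the filter, which called 0.24% of 25397 genes, its log2 fold change was -1.09 ± 0.91 (SE, 95% interval -3.27 to 1.08, edgeR's adjusted p = 0.684).

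*Smad6*, an inhibitory SMAD that is itself a BMP target (chr9:63800953-63869866, minus strand), had 19 and 10 counts in WT and 11 and 15 counts in KO2. These gave 7.08 and 2.36 CPM in WT and 1.39 and 2.01 CPM in KO2, so both KO2 samples were the lower ones, and the WT samples differed from each other by more than the second WT sample did from KO2. The log2 fold change was -1.32 ± 0.68 (SE, 95% interval -2.75 to 0.10), and the adjusted p was 0.299 (edgeR). WT replicate 1 decided its size: without it the log2 fold change was -0.48.

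**Figure D3:**
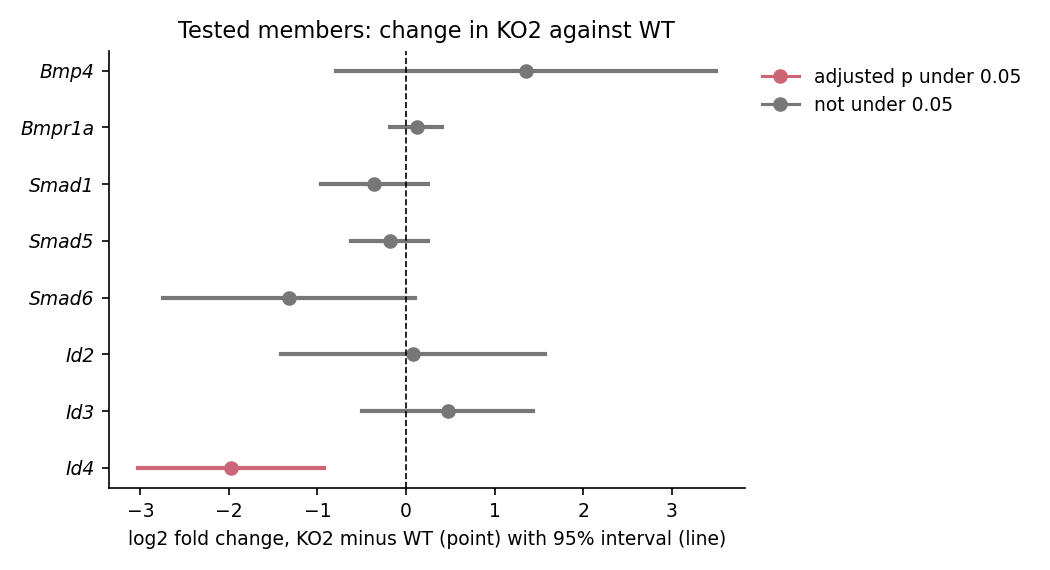
Log2 fold change of KO2 against WT (horizontal axis, 0 marked by a dashed line) for the 8 tested members, with the 95% interval of edgeR's fit as a line. The interval of *Id4*, from -3.03 to -0.93, is the one that does not reach 0, and those of *Bmp4*, *Smad6* and *Id2* are the widest.

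*Id4* encodes the ID family member known best from neural development. It lies on the plus strand at chr13:48356796-48359405, and 171 of its 1660 exon bases overlap the opposite-strand lincRNA *A330033J07Rik*. How the counting treated strand is not given, and the part of this overlap in the *Id4* counts was not tested. *Id4* had 21 and 42 counts in the WT samples, which were the shallower ones, and 19 and 16 counts in the KO2 samples. At 7.83 and 9.92 CPM in WT and 2.41 and 2.14 CPM in KO2, the groups were apart and the KO2 samples were close to each other. With n = 2 each, the mean and SD were 8.88 ± 1.48 CPM for WT and 2.27 ± 0.191 CPM for KO2. The log2 fold change was -1.98 ± 0.50 (SE, 95% interval -3.03 to -0.93), with an adjusted p of 0.0249 (edgeR). The call was near the threshold: leaving out any 1 of the 4 samples kept the log2 fold change between -2.11 and -1.77, but the adjusted p was then 0.0638 to 0.176, and with DESeq2 it was 0.0712. In bulk RNA, fewer cells with *Id4* and less *Id4* RNA per cell cannot be told apart.

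*Id3* (chr4:135699412-135701670, plus strand), the most abundant of the other *Id* genes, had 10 and 30 counts in WT and 53 and 69 counts in KO2. In CPM these were 3.73 and 7.09 in WT and 6.72 and 9.22 in KO2, and the groups overlapped. The log2 fold change was 0.47 ± 0.46 (SE, 95% interval -0.50 to 1.44, edgeR's adjusted p = 0.639), and it was 0.17 without WT replicate 1, 1.09 without WT replicate 2 and 0.22 without KO2 replicate 2. *Id2* (chr12:25778666-25780957, minus strand) had 3 and 12 counts in WT and 17 and 18 counts in KO2, or 1.12 and 2.84 CPM against 2.16 and 2.41 CPM. Both KO2 samples lay between the WT samples. The log2 fold change of *Id2* was 0.08 ± 0.71 (SE, 95% interval -1.41 to 1.57, edgeR's adjusted p = 0.969), and without WT replicate 1 it was -0.31.

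*Id1* (chr2:152561987-152563146, plus strand), often used as a readout of BMP signalling, was barely read in these cells. It had 0 and 7 counts in WT and 12 and 2 counts in KO2, or 0 and 1.65 CPM against 1.52 and 0.267 CPM. Each group held a sample under the level of 3 counts, and *Id1* did not pass the filter. Without the filter its log2 fold change was -0.12 ± 1.24 (SE, 95% interval -3.06 to 2.83, edgeR's adjusted p = 0.973), so a difference was not detectable at this depth.

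The make-up of the *Id* counts within each sample does not depend on scaling between libraries. *Id4* gave 21 of 34 (61.8%, exact 95% binomial interval 43.6 to 77.8%) and 42 of 91 *Id* counts (46.2%, 35.6 to 56.9%) in the WT samples. It gave 19 of 101 (18.8%, 11.7 to 27.8%) and 16 of 105 *Id* counts (15.2%, 8.97 to 23.6%) in the KO2 samples. The *Id4* share was thus lower in both KO2 samples, with means of 54% ± 11 in WT and 17% ± 2.53 in KO2 (SD, n = 2 each). This describes the same counts as the fall in *Id4*, and no test is drawn from it, since an exact permutation test of 2 against 2 samples cannot give a two-sided p under 0.333. *Id3* gave 29.4% and 33% of the *Id* counts in WT and 52.5% and 65.7% in KO2, a share that rises where *Id4* counts fall. Among *Id1* to *Id3* counts alone, *Id3* gave 76.9% and 61.2% in WT and 64.6% and 77.5% in KO2, and the groups overlapped. The summed level of the 4 *Id* genes, 12.7 and 21.5 CPM in WT and 12.8 and 14 CPM in KO2, overlapped between the groups, as did that of *Id1* to *Id3* (4.84 and 11.6 CPM in WT, 10.4 and 11.9 CPM in KO2). Intervals on shares cover counting error only.

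**Figure D4:**
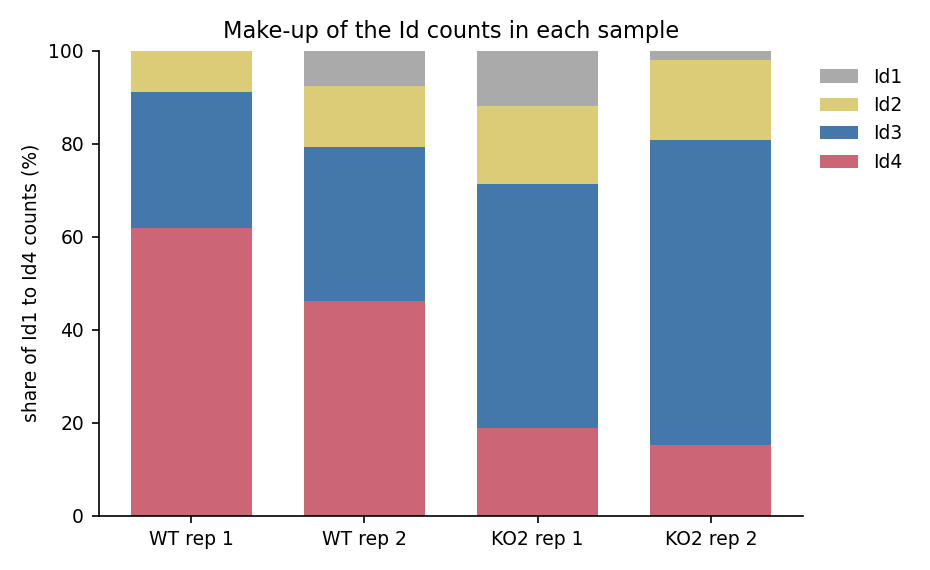
Share of the *Id1* to *Id4* counts that each gene gave in each sample (stacked bars, percent, without error bars). *Id4* gave 61.8% and 46.2% in the WT samples and 18.8% and 15.2% in the KO2 samples, in which *Id3* gave 52.5% and 65.7%.

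A wider list of 82 genes of the pathway, sorted by role, placed the members among their partners. Of these, 42 were tested, 2 were called as higher and 2 as lower in KO2, or 9.52% of those tested against 5.64% of all tested genes, and 14 had no count in any sample. The median log2 fold change of the 42 was -0.0437. None of the 2 tested ligands, 7 receptors, 2 SMADs of the common and inhibitory kind, 2 SMADs of the TGF-beta branch, 6 extracellular antagonists or modulators and 14 intracellular or membrane modulators was called. Not all of their genes were near 0: *Fst*, the secreted follistatin that binds activins and BMPs, named after its values were seen, had 4.84 and 5.67 CPM in WT and 1.27 and 1.34 CPM in KO2, with a log2 fold change of -2.02 ± 0.62 (SE, edgeR's adjusted p = 0.0651). The receptor *Acvr2b* at 1.00 and *Smad3* at 0.47, likewise named after their values were seen, were also apart between the groups and not called. The groups did not overlap in CPM for 23 of the 42 tested genes, against 48.8% of all tested genes. The most abundant gene in each of these roles lay close to 0 in log2 fold change: *Gdf3*, a ligand of the TGF-beta family, at -0.04, *Bmpr2*, the type II BMP receptor, at -0.05, *Smad7* at 0.03, *Smad2* at 0.06, the secreted BMP binder *Twsg1* at -0.06 and the 14-3-3 gene *Ywhaz* at 0.02. *Smad7*, like *Smad6* an inhibitory SMAD and BMP target, was read far more deeply than it, at 129.7 and 133.5 CPM in WT and 142.4 and 126.5 CPM in KO2, and its 95% interval ran from -0.24 to 0.30.

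The 4 called genes of the wider list were targets other than the *Id* genes, of which 6 of 18 were tested, and an E protein. *Dusp9*, a phosphatase of ERK kinases that BMP signalling is known to induce in ESCs, had 6.71 and 6.85 CPM in WT and 23.3 and 30.5 CPM in KO2. It rose by 1.98 ± 0.32 (SE) on the log2 scale with an adjusted p of 0.000855 (edgeR). *Gata2*, a transcription factor of blood and trophoblast development, had 5.59 and 7.33 CPM in WT and 18.8 and 20.5 CPM in KO2, a rise of 1.56 ± 0.35 (SE) on the log2 scale with an adjusted p of 0.0103 (edgeR). Both of these targets thus moved opposite to *Id4*.

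*Prdm1*, a transcription factor that BMP4 induces in germ cell precursors, had 23.1 and 26.5 CPM in WT and 6.47 and 11.2 CPM in KO2. Its log2 fold change was -1.50 ± 0.31 (SE, edgeR's adjusted p = 0.00702). *Tcf4*, 1 of the 3 E proteins with which ID proteins pair, had 263 and 423 counts in WT (99.0 ± 1.37 CPM, mean ± SD) and 405 and 413 counts in KO2 (53.3 ± 2.72 CPM), a log2 fold change of -0.89 ± 0.15 (SE, edgeR's adjusted p = 0.000898). The other 2 E proteins were not called. Without WT replicate 1 the adjusted p of *Gata2* was 0.0686 and that of *Prdm1* 0.0563, and without WT replicate 2 that of *Prdm1* was 0.0877. With ERCC scaling the adjusted p of *Tcf4* was 0.325. Without the filter on low counts all 4 calls were lost, with adjusted p values (edgeR) of 0.078 for *Dusp9*, 0.128 for *Gata2*, 0.176 for *Prdm1* and 0.0888 for *Tcf4*.

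**Figure D5:**
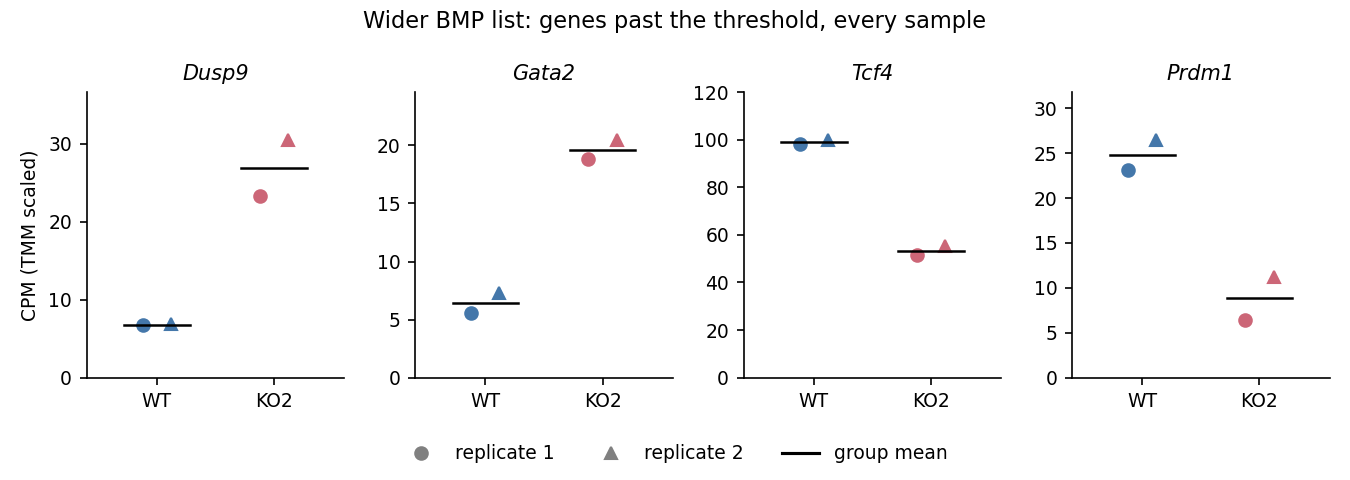
CPM (vertical axis, starting at 0, a scale of its own in each panel) of the 4 called genes of the wider list in the 2 WT and 2 KO2 samples, with points for samples and bars for group means. *Dusp9* and *Gata2* are higher in both KO2 samples, and *Tcf4* and *Prdm1* are lower in both.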

How the data were processed

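The authors isolated RNA in duplicate, depleted ribosomal RNA, prepared strand-specific libraries, mapped reads to mm9 with HISAT2 and deposited raw counts per gene from HTSeq for each sample, without normalization. Versions, annotation release and counting options are not given in the sources used here. HTSeq's summary rows (52.88 to 58.77% of all counts) and 92 ERCC spike-in rows were left out. Counts were fitted with edgeR 4.0.16 (R 4.3.3, TMM, filterByExpr at min.count 10 and min.total.count 15, quasi-likelihood test, group as the only term) and adjusted over 12883 genes at a threshold of 0.05. The fit was tested on simulated data. RPKM used exon lengths of the mm9 annotation. The labels name biological replicates but no separate cultures, so p-values measure the spread between these samples, which may be technical. Replicates differed by more than sampling noise (chi-square per gene 5.92 in WT and 21.3 in KO2), and same-numbered samples did not deviate together.

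Members and lists were chosen with earlier results of these data known. Named were all members, called genes and the most abundant gene per role or marker list, and the targeted gene; 1 gene under this rule is not reported here. *Ddx3y* was added after values were seen. *Sox1* was not analysed here. Alternatives were RLE or ERCC scaling, no filter or 10 counts in every sample, DESeq2 1.42.0, the older quasi-likelihood method, a replicate block and leaving out each sample.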

Additional observations from a re-analysis of the deposited data

How the results depend on the processing

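The direction of *Id4*, *Id3*, *Bmp4*, *Bmpr1a*, *Smad1* and *Smad6* held under every alternative in which the gene was tested. *Bmp4* was not tested with at least 10 counts in every sample or without KO2 replicate 1. *Id4* lost its call with ERCC scaling (log2 fold change -1.93, adjusted p = 0.0561), without the filter on low counts (-1.95, 0.162), with DESeq2 (-1.97, 0.0712) and without any 1 sample (-2.11 to -1.77, 0.0638 to 0.176). Accordingly the number of members called as lower was 0 in place of 1 with ERCC scaling, without the filter, with DESeq2 and in each fit without 1 sample. Over all alternatives the adjusted p of *Id4* ran from 0.00826 to 0.176. *Id2* turned to -0.31 without WT replicate 1 and to -0.00821 without KO2 replicate 2, with a range of -0.31 to 1.01 over single samples left out, and *Smad5* turned to 0.0791 without WT replicate 2, with a range of -0.39 to 0.0791. In the wider list, the 2 genes called as higher became 0 without the filter and 1 to 2 without 1 sample, and the 2 called as lower became 1 with ERCC scaling, 0 without the filter, 1 to 2 without 1 sample and 3 both with at least 10 counts in every sample and with the replicate block. *Tcf4* had a log2 fold change of -0.81 ± 0.34 (SE) with ERCC scaling, against -0.89 ± 0.15 in the main fit. Its adjusted p with this scaling was 0.325 (edgeR). The median log2 fold change of all tested genes was 0.0902 with ERCC scaling. Over all genes, 336 higher and 391 lower calls became 90 and 73 with ERCC scaling, 29 and 32 without the filter and 122 to 341 and 148 to 350 without 1 sample, and higher calls became 192 with DESeq2. Where an arm was left with 1 sample, that sample was assumed to vary like the other group. The fit without the filter tested 25397 genes. Before adjustment, the p of *Id4* (edgeR) was 0.000883 in the main fit and 0.00195 without the filter. The causes of the lost calls were not tested.

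Replicate numbers are shared between the groups, but the deviations of same-numbered samples correlated at -0.0166. In a fit with a replicate block, 476 genes were called as higher and 474 as lower, and *Id4* had a log2 fold change of -1.96 with an adjusted p of 0.0108. The block changed no call among the members. At this depth, *Id1*, *Id2*, *Bmp4*, *Smad6* and *Smad9* rested on 0 to 25 counts per sample.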
